A study of Mus musculus with 9 samples.

Results

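The Bcl2 family and the initiator caspase of the mitochondrial death pathway were followed in the cerebral cortex of Sfpq mutant and control mouse embryos. Sfpq encodes a nuclear RNA-binding protein. The 9 genes were chosen by symbol (Bcl2, Bcl2l1, Mcl1, Hrk, Bax, Bak1, Bbc3, Bcl2l11 and Casp9). All 9 were among the 23201 genes with a listed RefSeq transcript, and each was read from the transcript with the highest mean level over the 9 libraries. The samples were 3 homozygous Sfpq mutant, 3 heterozygous Sfpq mutant and 3 control cortices at age E13.5, each library from 1 deposited replicate of total RNA after removal of ribosomal RNA. All embryos carried the mixed background C57BL/6+C57BL/6J+CBA. How the allele was made, whether a Cre driver was used and what the controls carry are not given here. The labels call the cells neuronal stem cells and neurons.

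In the mitochondrial pathway of apoptosis, pro-survival proteins such as Bcl2, Bcl2l1 (Bcl-xL) and Mcl1 hold the pore-forming proteins Bax and Bak1 in check. BH3-only proteins such as Bbc3 (Puma), Bcl2l11 (Bim) and Hrk bind the pro-survival proteins and tip the balance towards pore formation, after which released cytochrome c drives Apaf1 to activate Casp9. In mice, Mcl1 and Bcl-xL are needed for the survival of neural progenitors and immature neurons, and loss of Casp9 or Apaf1 gives an overgrown forebrain. The pathway is regulated at the protein level as well as by transcript level, and only transcript level was measured here.

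In homozygous cortex the BH3-only genes Bbc3 and Hrk rose to 2.75 and 2.49 times the control level, Mcl1 rose to 1.15 times, and Bcl2 fell to 0.692 times. The pore-forming genes Bax and Bak1, the pro-survival gene Bcl2l1, the BH3-only gene Bcl2l11 and Casp9 did not pass the test against control. Of 3 pro-survival members 1 rose and 1 fell, and of 6 pro-death members 2 rose and 0 fell, while over all genes 34.3% were called, 14.4% higher and 19.9% lower. In heterozygous against control cortex neither a member nor any other of the 12159 genes tested was called. Small changes there are not excluded. Levels are RPKM (reads per kilobase of transcript, scaled to library size), which can be compared between genes. Changes are differences of log2(RPKM + 0.5), tested with limma over 12159 genes with Benjamini-Hochberg adjustment, and a gene was called changed at an adjusted p below 0.05. Since the tissue was measured in bulk, fewer cells of a type and less RNA per cell cannot be told apart.

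Bbc3, Hrk and Bcl2 carry most of what follows, and the sequence in front of their transcription starts is shown with that of Bax, which did not pass. The 250 bases before the RefSeq start (build GRCm38.p6, 5′ to 3′ on the gene's own strand) are given for Bbc3 (chr7:16309333-16309582, plus strand), Hrk (chr5:118169514-118169763, plus strand), Bcl2 (chr1:106714291-106714540, minus strand) and Bax (chr7:45466899-45467148, minus strand). Capitals mark the GC box GGGCGG on either strand in Bbc3, Hrk and Bcl2, and a match to the p53 consensus decamer in Bax.
Bbc3: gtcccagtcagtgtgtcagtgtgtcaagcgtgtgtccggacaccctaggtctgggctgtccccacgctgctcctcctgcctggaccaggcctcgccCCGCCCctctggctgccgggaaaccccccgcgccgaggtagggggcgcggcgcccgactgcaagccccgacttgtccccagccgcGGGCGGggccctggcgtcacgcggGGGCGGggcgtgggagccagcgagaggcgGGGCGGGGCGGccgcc
Hrk: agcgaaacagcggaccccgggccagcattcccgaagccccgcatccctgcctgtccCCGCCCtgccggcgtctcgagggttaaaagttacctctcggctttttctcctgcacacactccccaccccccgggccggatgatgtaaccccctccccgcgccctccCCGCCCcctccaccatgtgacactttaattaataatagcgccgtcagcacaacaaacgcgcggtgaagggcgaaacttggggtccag
Bcl2: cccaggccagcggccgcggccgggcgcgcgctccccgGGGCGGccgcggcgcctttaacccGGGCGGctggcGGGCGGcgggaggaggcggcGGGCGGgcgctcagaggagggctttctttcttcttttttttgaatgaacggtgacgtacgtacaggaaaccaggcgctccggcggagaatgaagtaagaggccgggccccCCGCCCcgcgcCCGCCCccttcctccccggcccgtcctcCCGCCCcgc
Bax: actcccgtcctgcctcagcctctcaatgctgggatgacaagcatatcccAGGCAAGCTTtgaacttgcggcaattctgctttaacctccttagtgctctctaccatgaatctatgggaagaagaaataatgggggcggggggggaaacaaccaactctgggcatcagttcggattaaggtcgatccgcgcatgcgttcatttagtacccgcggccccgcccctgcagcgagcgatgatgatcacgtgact
Matches were counted on both strands, overlapping ones included. The GC box stood 5 times before Bbc3, 2 times before Hrk and 7 times before Bcl2. It also stood 2 times before Bax, left there in lower case. In all, 7 of the 9 members had at least 1 in the window nearest to their transcript's start, against 32.7% of 32841 RefSeq windows of the same length. These windows were not matched to the members for GC content, so the count is not a measure of enrichment. The Bak1 window, which had no GC box, lay 382 bases from the start of its listed transcript. The p53 decamer RRRCWWGYYY (R is A or G, W is A or T, Y is C or T) was found before 1 of the 9 members, Bax, and in 7.13% of all windows. Only exact matches were counted, so a p53 site that departs from this pattern at any base is missed. A window without a match, such as that of Bbc3, is therefore not shown to lack a p53 site. Nor is the single match before Bax shown to be a p53 site, and the marking does not set Bax apart from Bbc3. The FOXO motif GTAAACA was found before 1 of the 9, Bcl2l11 (3.17% of all windows), and the E-box CACGTG before 1, Bax (6.02%). The AP-1 motif TGANTCA and the TATA box TATAAA were found before 0 of the 9 (6.75% and 12.4% of all windows). Bbc3 has 3 RefSeq starts, of which the first is shown because it lies 33 bases from the start of the listed transcript in the GENCODE annotation. GC content of the 4 windows was 76.4% for Bbc3, 63.2% for Hrk, 74.8% for Bcl2 and 54% for Bax.

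Sfpq, read first as a check of the labels, was at 26.1, 28.6 and 27.6 RPKM in homozygous, 185, 163 and 169 RPKM in heterozygous and 184, 202 and 218 RPKM in control cortex. The level is that of its listed transcript with the highest mean, a non-coding RefSeq record. Heterozygous and control libraries overlapped, so the check sets apart the homozygous libraries only. The homozygous mean was 13.6% of control (log2 change -2.85 ± 0.07 SE, limma adjusted p = 1.22e-09) and the heterozygous mean 85.6% (log2 change -0.22 ± 0.07 SE, adjusted p = 0.709). The spacing of low values puts each library at roughly 169.5 M to 204.5 M reads, at which the least covered values rest on about 315 reads for Bbc3 and 629 for Hrk. Over all genes 4170 of 12159 were called in homozygous against control cortex, 34.3% of them, with 14.4% higher (1747 genes) and 19.9% lower (2423 genes). Centring each library on its median turned that split to 2953 higher and 1947 lower, and quantile normalization to 2568 higher and 2167 lower. In heterozygous against control cortex limma called 0 genes (0%), with 5.75% at an unadjusted p below 0.05. Both comparisons use the same 3 control libraries.

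**Figure D1:**
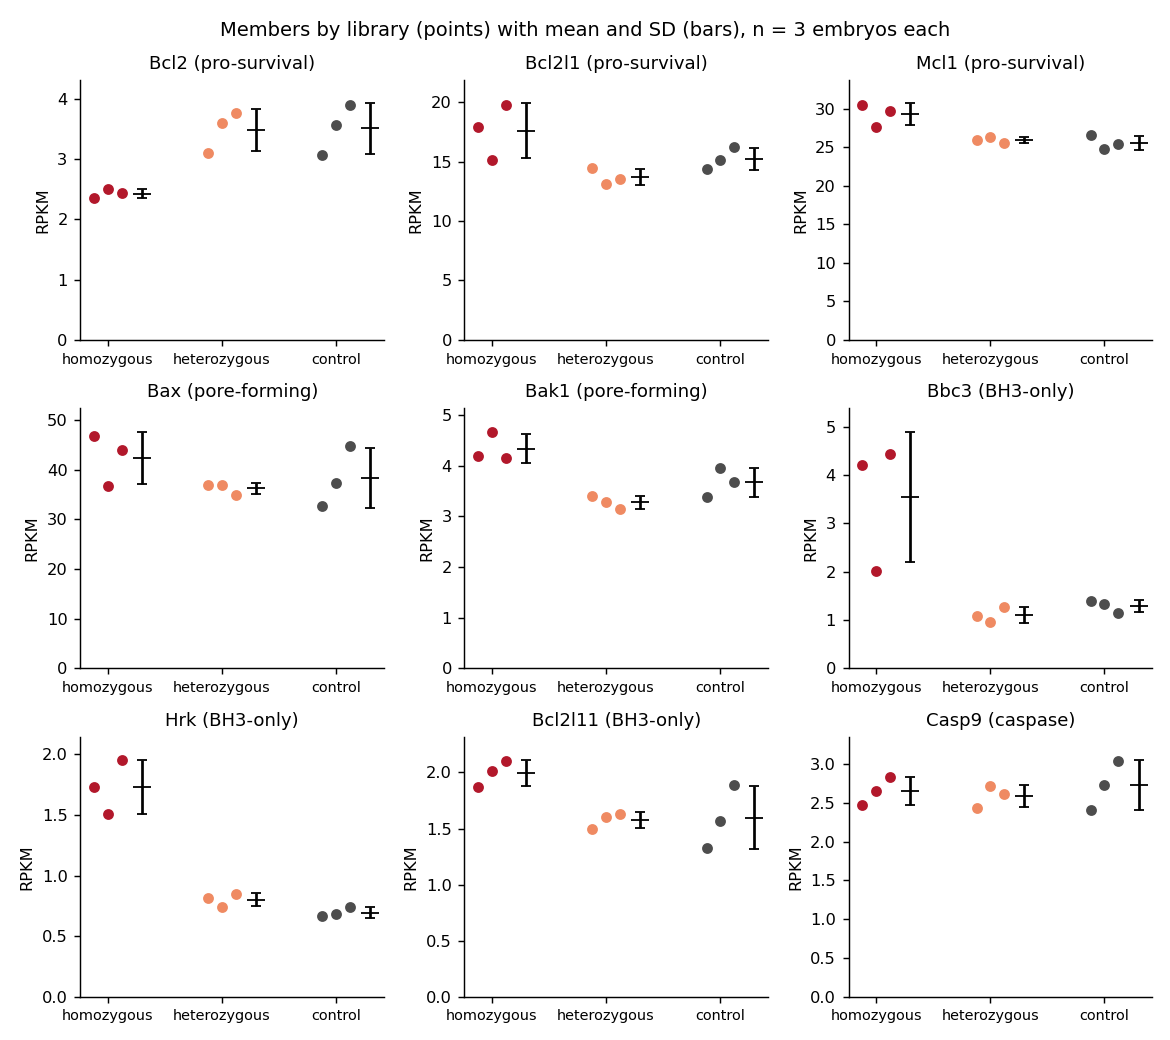
RPKM of the 9 genes in each library (points: 3 homozygous, 3 heterozygous and 3 control embryos) with the mean and SD beside them; every axis starts at 0. Bbc3 and Hrk lie above control and Bcl2 below it in all 3 homozygous libraries, while Casp9 overlaps between all genotypes.

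Bbc3 encodes Puma, a BH3-only protein and a direct p53 target in mouse and human. Its level was 4.20, 2.01 and 4.44 RPKM in homozygous cortex, against 1.09, 0.956 and 1.28 RPKM in heterozygous cortex and 1.38, 1.34 and 1.15 RPKM in controls. All 3 homozygous libraries lay above every other library, with the second well below the other two. The mean was 3.55 ± 1.34 RPKM in homozygous, 1.11 ± 0.161 RPKM in heterozygous and 1.29 ± 0.124 RPKM in control cortex (SD, n = 3 each). The log2 change against control was 1.12 ± 0.21 (SE, limma adjusted p = 0.00178) and against heterozygous cortex 1.27 ± 0.21 (SE, limma adjusted p = 8.06e-04). Among all genes tested this change against control stood at percentile 99.4. Without the second homozygous library it was 1.43 (limma adjusted p = 5.79e-06).

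Hrk (Harakiri, also DP5), a BH3-only gene known from rodent neurons deprived of growth factor, was the least abundant member in all 3 genotypes. It was at 1.73, 1.51 and 1.95 RPKM in homozygous cortex, against 0.813, 0.742 and 0.847 RPKM in heterozygous cortex and 0.664, 0.680 and 0.743 RPKM in controls. The homozygous libraries did not overlap with either other genotype, and heterozygous and control libraries overlapped at their edges. The log2 change was 0.90 ± 0.09 (SE, limma adjusted p = 1.79e-05) against control and 0.77 ± 0.09 (SE, limma adjusted p = 5.66e-05) against heterozygous cortex. In heterozygous cortex Hrk averaged 0.801 ± 0.0538 RPKM, 1.15 times the control mean of 0.695 ± 0.0419 RPKM (SD, n = 3 each), a log2 change of 0.12 with a 95% interval from -0.07 to 0.31 (limma adjusted p = 0.967). The pseudocount of 0.5 RPKM is near the level of Hrk in controls, so its log2 change depends on it: it was 1.196 with a pseudocount of 0.1 and 0.68 with 1, called each time.

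Bcl2l11, which encodes Bim, was at 1.87, 2.01 and 2.10 RPKM in homozygous cortex, against 1.49, 1.60 and 1.63 RPKM in heterozygous cortex and 1.33, 1.57 and 1.89 RPKM in controls. The homozygous libraries lay above all heterozygous ones and overlapped with the highest control. The log2 change of 0.26 ± 0.10 (SE) against control missed the threshold (limma adjusted p = 0.0641), and so did the change of 0.26 against heterozygous cortex (limma adjusted p = 0.0606). Without the third control library it was 0.36 against control (limma adjusted p = 0.0118), and median centring and quantile normalization gave 0.33 and 0.31 (limma adjusted p = 0.00574 and 0.00725). Against heterozygous cortex the adjusted p was 0.0336 without the first and 0.0263 without the third control library. Of its 4 listed transcripts, 3 had nearly the same level, at means over all libraries of 1.72, 1.69 and 1.66 RPKM, with log2 changes against control of 0.26, 0.27 and 0.27 when every transcript was tested on its own (adjusted p = 0.0612, 0.0488 and 0.0482). The other listed transcript, NM_001284410, which spans 5.46 kb against 34.9 to 36.5 kb for the others, averaged 0.963 RPKM and had a log2 change of 0.05 (adjusted p = 0.781). The transcripts share exons, so their values are not independent.

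Bcl2, the founding pro-survival gene, was at 2.35, 2.50 and 2.43 RPKM in homozygous cortex, against 3.10, 3.60 and 3.77 RPKM in heterozygous cortex and 3.07, 3.56 and 3.89 RPKM in controls. The homozygous libraries were close together and all below the lowest library of the other genotypes. The mean was 2.43 ± 0.0739 RPKM in homozygous, 3.49 ± 0.349 RPKM in heterozygous and 3.51 ± 0.417 RPKM in control cortex (SD, n = 3 each). The log2 change was -0.45 ± 0.09 (SE, limma adjusted p = 0.00359) against control and -0.44 ± 0.09 (SE, limma adjusted p = 0.00418) against heterozygous cortex. Heterozygous against control cortex gave -0.01, with an interval from -0.21 to 0.20.

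Bcl2 is also the longest of the 9 genes, and length is the subject the series names. Its span in GRCm38 is 176.1 kb, against 75.1 kb for Bcl2l1, 36.5 kb for Bcl2l11, 22.4 kb for Casp9, 19.7 kb for Hrk and 5.21 to 9.94 kb for Bax, Mcl1, Bak1 and Bbc3. The files list 2 Bcl2 transcripts that differ in length. NM_009741 has 2 exons and spans 176.1 kb, while NM_177410 has 1 exon and spans 2.841 kb. The 2-exon transcript is the one described above. The 1-exon transcript was at 1.65, 1.87 and 1.91 RPKM in homozygous cortex, against 2.09, 2.26 and 2.16 RPKM in heterozygous cortex and 2.07, 2.14 and 2.11 RPKM in controls, again with no overlap. Tested among all transcripts, its log2 change was -0.17 ± 0.07 (SE, limma adjusted p = 0.0948) against control and -0.21 ± 0.07 (SE, limma adjusted p = 0.0499) against heterozygous cortex. The ratio of the 2-exon to the 1-exon transcript was 1.42, 1.33 and 1.27 in homozygous, 1.48, 1.59 and 1.74 in heterozygous and 1.48, 1.67 and 1.85 in control libraries. It was lower in all 3 homozygous libraries than in any other, with a mean of 1.34 ± 0.0772 in homozygous and 1.67 ± 0.185 in control cortex (SD, n = 3 each; two-sided exact permutation p = 0.1, below which 3 libraries against 3 cannot go). The same exact permutation test gave p = 0.1 for homozygous against heterozygous and p = 0.8 for heterozygous against control cortex. How reads shared by both transcripts were divided is not stated in the sources used here, and the transcripts share exon sequence.

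**Figure D2:**
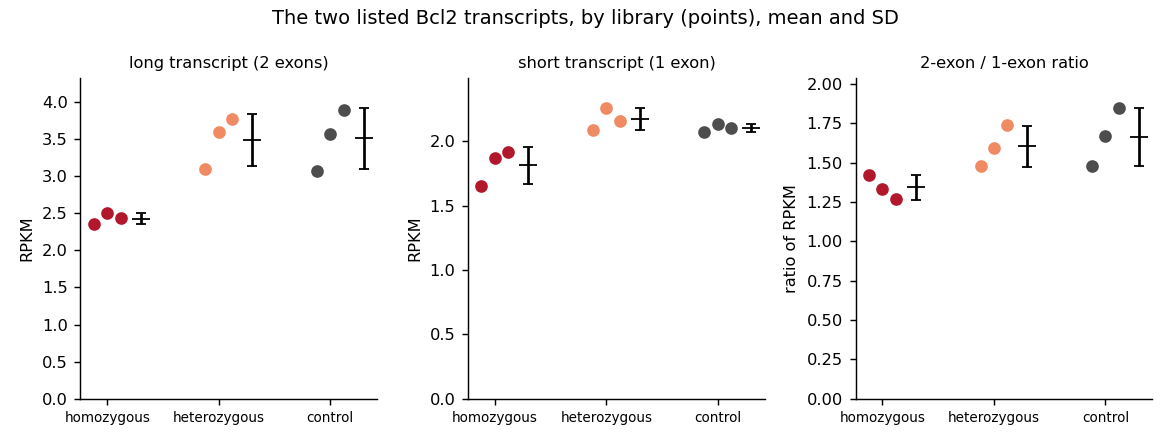
RPKM of the 2-exon and 1-exon Bcl2 transcripts and their ratio in each library (points) with mean and SD, for 3 homozygous, 3 heterozygous and 3 control embryos. The ratio lies between 1.27 and 1.42 in homozygous and between 1.48 and 1.85 in control libraries.

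Mcl1, a short-lived pro-survival protein, was the second most abundant member. It was at 30.4, 27.7 and 29.7 RPKM in homozygous cortex, against 26.0, 26.4 and 25.6 RPKM in heterozygous cortex and 26.6, 24.7 and 25.4 RPKM in controls. All 3 homozygous libraries lay above the others, by a small margin. The log2 change was 0.19 ± 0.05 (SE, limma adjusted p = 0.0150) against control and 0.17 ± 0.05 (SE, limma adjusted p = 0.0289) against heterozygous cortex. The call against control was lost without the second control library (limma adjusted p = 0.0696) or the first homozygous library (0.0669). The call against heterozygous cortex was lost without any of the 3 heterozygous libraries (limma adjusted p = 0.0636, 0.0632 and 0.0807) and without the first or the third homozygous library (0.116 and 0.0814).

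Bcl2l1, which encodes Bcl-xL, was at 17.9, 15.1 and 19.7 RPKM in homozygous cortex, against 14.4, 13.1 and 13.53 RPKM in heterozygous cortex and 14.4, 15.1 and 16.2 RPKM in controls. The homozygous libraries lay above the heterozygous ones and overlapped with controls. The change of 0.34 ± 0.09 (SE) on the log2 scale against heterozygous cortex passed (limma adjusted p = 0.0121; 0.0588 with no filter on low values), and the change of 0.19 ± 0.09 against control did not (limma adjusted p = 0.117). Against control the p was 0.0136 without the second homozygous library, 0.0212 with median centring and 0.0452 with quantile normalization. The heterozygous mean of 13.7 ± 0.674 RPKM lay below the control mean of 15.2 ± 0.930 RPKM (SD, n = 3 each), with an interval of the log2 change from -0.34 to 0.04.

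The pore-forming genes did not pass the test against control. Bax, the most abundant member, was at 46.8, 36.7 and 43.9 RPKM in homozygous cortex, against 37.0, 37.0 and 35.0 RPKM in heterozygous cortex and 32.8, 37.4 and 44.8 RPKM in controls. Homozygous and control libraries ran over the same range, and the log2 change of 0.15 had an interval from -0.09 to 0.39 (limma adjusted p = 0.324). Against heterozygous cortex it was 0.22 ± 0.11 (SE, limma adjusted p = 0.156), or 0.32 without the second homozygous library (limma adjusted p = 0.0447) and 0.28 with median centring (0.0432). Bak1 was at 4.18, 4.66 and 4.15 RPKM in homozygous cortex, against 3.402, 3.28 and 3.14 RPKM in heterozygous cortex and 3.39, 3.95 and 3.67 RPKM in controls. Its homozygous libraries lay above all others. The log2 change against control, 0.21 ± 0.08 (SE), had an adjusted p of 0.0528 with limma, just over the threshold, and 0.0139 with median centring, 0.0152 with quantile normalization and 0.0499 among genes of at least 2 RPKM. The change against heterozygous cortex, 0.36 ± 0.08 (SE), passed (limma adjusted p = 0.00480).

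Casp9, the initiator caspase of the apoptosome, was at 2.47, 2.65 and 2.83 RPKM in homozygous cortex, against 2.43, 2.71 and 2.61 RPKM in heterozygous cortex and 2.40, 2.73 and 3.04 RPKM in controls. The libraries of all genotypes were mixed in order. The log2 change against control was -0.03 in homozygous cortex, with an interval from -0.23 to 0.16 (limma adjusted p = 0.822), and its sign turned under median centring and quantile normalization. Its second listed transcript, NM_001277932, had a log2 change of -0.02 (limma adjusted p = 0.883).

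**Figure D3:**
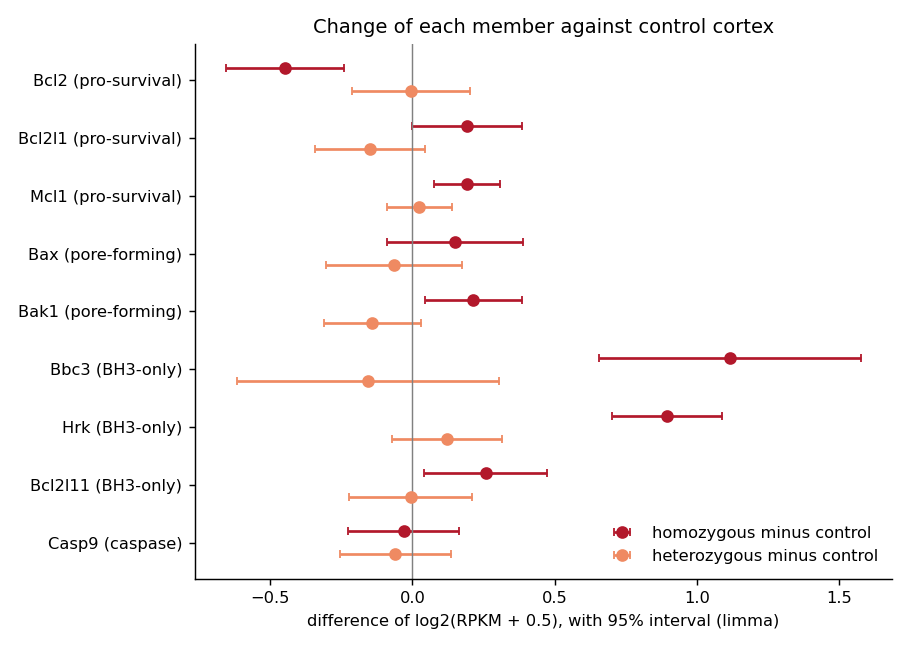
Change of each member against control cortex in log2(RPKM + 0.5), with 95% intervals from limma, for homozygous (upper point of each pair) and heterozygous cortex (lower point). The homozygous intervals of Bbc3, Hrk, Mcl1, Bak1 and Bcl2l11 lie above 0 (the last 2 did not pass after adjustment) and that of Bcl2 below it, while all 9 heterozygous intervals include 0.

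Over the 9 members, 4 were called in homozygous against control cortex (3 higher and 1 lower), where 34.3% of all genes were called, so that the members' count lies near the background. Median centring or quantile normalization gave 7 calls, 6 higher and 1 lower, with Bak1, Bcl2l1 and Bcl2l11 added, where 40.3% of all genes were called with median centring (24.3% higher and 16% lower) and 38.9% with quantile normalization (21.1% higher and 17.8% lower). Homozygous and control libraries did not overlap for 5 members, 4 higher and 1 lower, against 46.2% of all genes (20.6% higher and 25.6% lower). The median log2 change was 0.19 over the 9 members and -0.01 over all genes tested. In homozygous against heterozygous cortex 6 members were called, 5 higher (Bbc3, Hrk, Bak1, Bcl2l1 and Mcl1) and 1 lower (Bcl2), against 32.8% of all genes (14.6% higher and 18.3% lower), with a median of 0.26 over the members. Their libraries did not overlap for 7 members, 6 higher and 1 lower, against 46.7% of all genes (22.5% higher and 24.2% lower). That comparison shares its homozygous libraries with the one against control. Its split over all genes, 1771 higher and 2221 lower, became 2957 and 1814 with median centring and 2429 and 2099 with quantile normalization. In heterozygous against control cortex limma called 0 of the 9, with 0 at an unadjusted p below 0.05 and a lowest unadjusted p of 0.0954, for Bak1. Heterozygous and control libraries overlapped for all 9, where 11.1% of all genes had no overlap.

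The order of levels shifted among the less abundant members. In control cortex the order was Bax, Mcl1, Bcl2l1, Bak1, Bcl2, Casp9, Bcl2l11, Bbc3 and Hrk, in which Bak1 and Bcl2 overlapped with each other, as did Bcl2l11 and Bbc3, and all other neighbours were apart. In homozygous cortex Bbc3 stood between Bak1 and Casp9 and overlapped with both, while Bcl2 stood below Casp9 and overlapped with it. The level of Bbc3 was 1.79, 0.803 and 1.83 times that of Bcl2 in homozygous libraries, 0.353, 0.265 and 0.339 times in heterozygous libraries and 0.451, 0.376 and 0.296 times in controls. Bbc3 thus exceeded Bcl2 in 2 of 3 homozygous libraries and in no other library. Bax was 19.9, 14.7 and 18.1 times Bcl2 in homozygous, 11.9, 10.3 and 9.29 times in heterozygous and 10.7, 10.5 and 11.5 times in control libraries.

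Set against each other by role, the pro-survival sum of Bcl2, Bcl2l1 and Mcl1 was 50.7, 45.3 and 51.8 RPKM in homozygous, 43.5, 43.1 and 42.9 RPKM in heterozygous and 44.0, 43.4 and 45.5 RPKM in control libraries. Mcl1 made up 57.2% to 61.1% of it in homozygous libraries and 55.8% to 60.4% in controls, and Bcl2 made up 4.64% to 5.52% in homozygous libraries and 6.97% to 8.56% in controls. The BH3-only sum of Bbc3, Hrk and Bcl2l11 was 7.80, 5.53 and 8.49 RPKM in homozygous, 3.401, 3.30 and 3.76 RPKM in heterozygous and 3.38, 3.59 and 3.79 RPKM in control libraries. The ratio of the pro-survival to the BH3-only sum was 6.50, 8.20 and 6.10 in homozygous, 12.8, 13.1 and 11.4 in heterozygous and 13.0, 12.1 and 12.02 in control libraries. No homozygous library reached the lowest ratio of the others. The BH3-only sum leaves out Bad, Bmf, Bid and Pmaip1, which are read with the wider pathway below. Bad alone lay above this sum in every library, and it fell in homozygous against control cortex, while Bmf, Bid and Pmaip1 rose. The level of the ratio and the size of its change therefore hold for the chosen members and not for all BH3-only genes. On the log2 scale, the mean change of the 6 pro-death members was 0.47, 0.29 and 0.54 in the homozygous libraries and that of the 3 pro-survival members -0.00438, -0.10 and 0.04, each relative to the control mean. With Bbc3 and Hrk left out, the mean change of the other 4 pro-death members was 0.13, 0.13 and 0.18. These sums are given as a description with no test, since the members were chosen with earlier results of these data known.

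**Figure D4:**
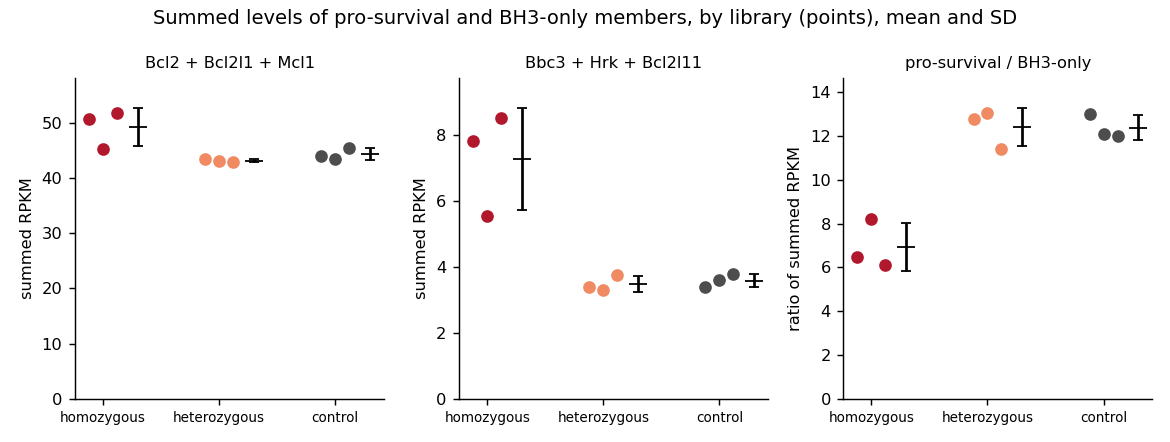
Summed RPKM of the pro-survival members, summed RPKM of the BH3-only members (Bbc3, Hrk and Bcl2l11, without other BH3-only genes) and their ratio in each library (points) with mean and SD, for 3 homozygous, 3 heterozygous and 3 control embryos. The ratio is 6.10 to 8.20 in homozygous and 12.02 to 13.0 in control libraries.

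The wider pathway was read from gene lists of 90 other genes, of which 74 could be tested. Of these, 15 rose and 14 fell in homozygous against control cortex, with a median log2 change of 0.02. That is 20.3% higher and 18.9% lower, near the 14.4% and 19.9% over all genes, and the counts of single lists below are to be read against the same shares. Of the 74 genes, 0 were called in heterozygous against control cortex. Of the 4 other BH3-only genes tested, 3 rose and 1 fell. Pmaip1 (Noxa), which binds Mcl1, was at 2.13 ± 0.256 RPKM in homozygous and 1.08 ± 0.205 RPKM in control cortex (SD, n = 3 each, limma adjusted p = 0.00582). Bid, which links death receptors to mitochondria, rose by 0.43 on the log2 scale (limma adjusted p = 0.00451) and Bmf by 0.57 (limma adjusted p = 0.0205). Bad fell by 0.21 (limma adjusted p = 0.0223). The Bmf call was lost with no filter and without the first or second control or the first or the third homozygous library (limma adjusted p = 0.110 and 0.0625 to 0.0782). The Bad call was lost with median centring and without the second or the third control or the first homozygous library (0.0742 and 0.0550 to 0.103). Bok, a Bax-like gene, fell by 0.26 (limma adjusted p = 0.0139), a call lost without the second control or the first homozygous library (0.0695 and 0.0626). Bcl2l2, the 1 other pro-survival gene that could be tested, was not called. Of 6 tested Bcl2-related genes 1, Bnip1, was called, with a fall of 0.50 on the log2 scale (limma adjusted p = 1.26e-04).

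Of 3 other apoptotic caspases read here, Casp2 rose and the other two did not pass the test. Casp2 was at 10.5 ± 0.0557 RPKM in homozygous and 8.84 ± 0.326 RPKM in control cortex (SD, n = 3 each, limma adjusted p = 0.0106). Casp6 was at 7.47 ± 0.771 RPKM in homozygous and 8.89 ± 0.760 RPKM in control cortex (limma adjusted p = 0.0543; 0.0460 without the first control and 0.0252 without the second homozygous library). Casp8 had a log2 change of -0.01 (limma adjusted p = 0.946), whose sign turned under median centring and quantile normalization. Of 8 genes of the apoptosome and of mitochondrial release 1 rose, the channel gene Vdac2, which in mouse cells binds Bak1, by 0.18 (limma adjusted p = 0.0176; 0.0526 to 0.0749 without the second or the third control or the first homozygous library). Apaf1 was at 13.3 ± 0.510 RPKM in homozygous and 12.6 ± 0.630 RPKM in control cortex (limma adjusted p = 0.375). Of 5 inhibitors of apoptosis proteins 1 fell, Birc5 (survivin), which also acts in mitosis, by 0.46 (limma adjusted p = 7.22e-05). Xiap, which blocks Casp9, was at 6.04 ± 0.120 RPKM in homozygous and 7.19 ± 0.239 RPKM in control cortex, with a limma adjusted p of 0.0881, and of 0.0230 in a fit of these 2 genotypes alone and of 0.0310 and 0.0315 without the first or the third heterozygous library. The 1 inflammatory caspase that could be tested, Casp1, was not called. Of 7 caspase substrates Pak2 rose and Acin1, Dffa and Lmnb1 fell, by 0.48, 0.35 and 0.29 for the 3 that fell.

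Upstream, Trp53 itself was at 4.003 ± 0.213 RPKM in homozygous and 4.27 ± 0.139 RPKM in control cortex (SD, n = 3 each, limma adjusted p = 0.369). Of 7 tested genes for p53 and its regulators 1 fell, Mdm4, by 0.23 (limma adjusted p = 0.0120; 0.0573 without the first homozygous library). Of 10 other p53 targets 7 rose and 0 fell, and against heterozygous cortex 7 rose and 1 fell. Zmat3, Perp and Trp53inp1 were not called against control (log2 changes of 0.02, 0.09 and -0.13). Nor were Mdm2 and Ppm1d, counted here among the regulators (-0.14 and -0.07). Ccng1 was at 40.0 ± 8.91 RPKM in homozygous and 14.8 ± 0.295 RPKM in control cortex (SD, n = 3 each, limma adjusted p = 1.89e-05). Sesn2, Phlda3 and Sesn1 rose by 1.09, 0.97 and 0.59 on the log2 scale. The second homozygous library, the lowest of the 3 for Bbc3 and Hrk, was also the lowest for 6 of the 7 targets that rose against control. It had 29.7 RPKM of Ccng1 against 46.1 and 44.0 RPKM in the other homozygous libraries, and it was the lowest of the 3 for Bax, Mcl1 and Bcl2l1 as well, in all 5 of the 9 members. Over all genes tested it was the lowest homozygous library for 37.9%. What these genes share in that library was not tested. Of 8 death receptor genes, Eda2r, a p53 target, rose by 1.70 (limma adjusted p = 2.57e-06), and Tradd, Cflar (c-FLIP) and Tnfrsf21 fell by 0.45, 0.43 and 0.23. The Tnfrsf21 call was lost with median centring and without the second control or the first homozygous library (limma adjusted p = 0.0574, 0.0591 and 0.0632). Of 9 tested factors and kinases known to act on BH3-only genes, Foxo3 rose by 0.36, and Mapk10 (JNK3), Atf4 and Jun fell by 0.87, 0.68 and 0.44. The Foxo3 call was lost with no filter and without the first or second control or the first or the third homozygous library (limma adjusted p = 0.0543 to 0.0677), the Atf4 call with no filter and without the second control or first homozygous library (0.0514 to 0.102), and the Jun call with no filter (0.0626). Of 5 genes listed for Mcl1 turnover, Huwe1, Usp9x, Fbxw7 and Gsk3b were not called. The remaining gene, Trib1, rose by 0.64, and a part of Trib1 in Mcl1 turnover is not shown here.

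**Figure D5:**
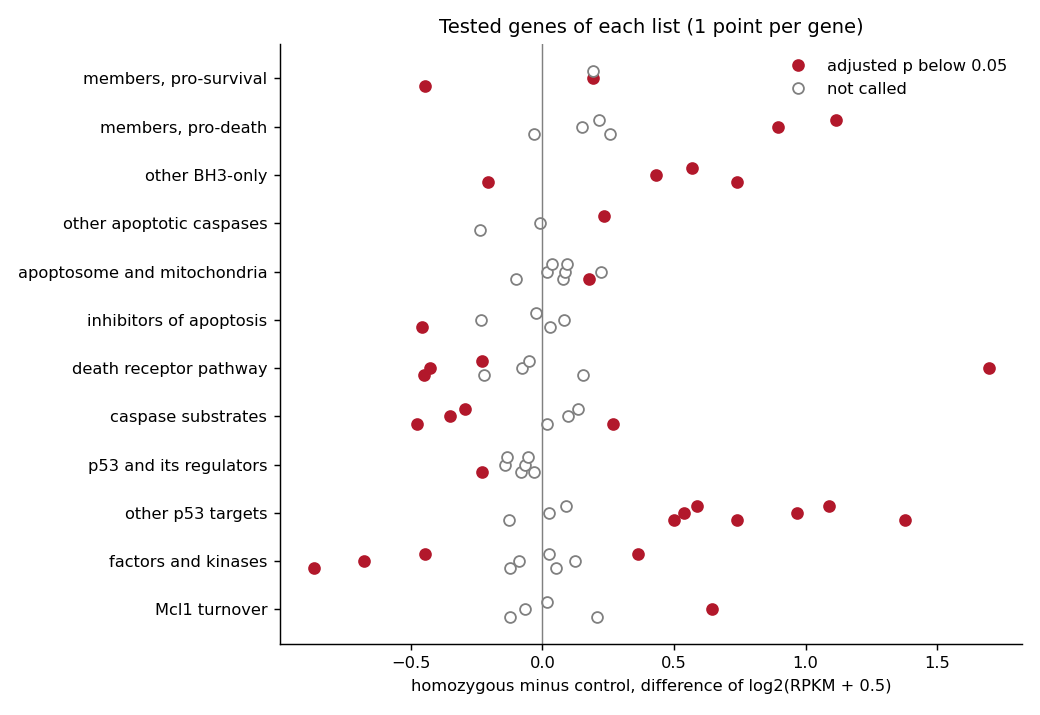
Change in homozygous against control cortex of every tested gene in 12 lists, Pmaip1 being in 2 of them, in log2(RPKM + 0.5); filled points have a limma adjusted p below 0.05. Of the other p53 targets 7 of 10 and of the other BH3-only genes 3 of 4 are filled and to the right of 0, and 1 of 8 apoptosome and mitochondrial genes is.

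For each member called in any comparison, the 2 genes whose level followed it most closely were taken by the root mean square difference of the log2 changes from the control mean over the 9 libraries, among 10926 genes of at least 1 RPKM. The difference is not scaled to the size or spread of a member's own change, so its values do not rank the members. Hrk was followed by Luc7l and Ppp1r3f, with differences of 0.04999 and 0.0713, and Bbc3 by Ccdc184 and Rims2, with 0.134 and 0.159. The nearest genes to Bcl2 were Ppm1l and Ror2 (0.0577 and 0.0588), to Mcl1 Trim35 and Hsf2 (0.0305 and 0.0325), to Bcl2l1 Amer2 and Borcs8 (0.0389 and 0.0480) and to Bak1 Bpgm and Eno1 (0.0590 and 0.0650). None of these 12 genes was in the pathway lists.

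Some cell type markers differed between homozygous and control cortex, while no marker was called in heterozygous against control cortex. The summed level of 5 intermediate progenitor markers was 75.3 to 77.6 RPKM in homozygous, 115 to 131 RPKM in heterozygous and 116 to 139 RPKM in control libraries (3 lower and 1 higher of 5). A sum follows its most abundant genes: Neurog2 alone was at 24.5 RPKM in homozygous and 62.4 RPKM in control cortex. Eomes and Insm1 were also lower, Neurod1 was higher and Btg2 was not called. The sum of 8 neuronal markers was 526 to 642 RPKM in homozygous, 653 to 745 RPKM in heterozygous and 636 to 737 RPKM in control libraries (2 lower and 2 higher of 8), and that of 8 radial glia markers 1780 to 1870 RPKM in homozygous, 1820 to 2088 RPKM in heterozygous and 1885 to 2056 RPKM in control libraries (2 lower and 1 higher of 8). Among the radial glia markers Fabp7 and Slc1a3 were lower and Vim was higher, while Pax6, Sox2, Nes, Hes1 and Hes5 were not called. The sum of 6 Cajal-Retzius markers was higher in homozygous libraries (34.0 to 37.9 RPKM, against 25.9 to 29.2 RPKM in heterozygous libraries and 23.8 to 28.7 RPKM in controls). Of 5 tested, 3 were called, Nhlh2, Lhx5 and Ebf2. The sum of 8 microglia markers was 18.6 to 25.7 RPKM in homozygous libraries, above controls (14.4 to 15.9 RPKM) but overlapping with heterozygous libraries (15.1 to 18.8 RPKM). Of these 8, 3 were called higher against control, C1qa, C1qb and Aif1. C1qc, Csf1r, Cx3cr1, P2ry12 and Tyrobp were not called. The defining Cajal-Retzius markers were not higher: Reln was at 14.9 ± 0.354 RPKM in homozygous and 16.8 ± 1.88 RPKM in control cortex, and Trp73 at 0.615 ± 0.103 RPKM in homozygous and 0.655 ± 0.0627 RPKM in control cortex (SD, n = 3 each, limma adjusted p = 0.148 and 0.689). GABAergic, endothelial, erythroid and choroid or meningeal sums overlapped between homozygous and control libraries, with 1 of 4, 0 of 6, 2 of 6 and 0 of 5 tested markers called. Of the markers only Kl stayed under 0.1 RPKM in every library. Their part in the changes of the Bcl2 family was not tested.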

How the data were processed

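Total RNA of 9 embryonic cortices (3 per genotype) was depleted of ribosomal RNA and sequenced from libraries of a modified stranded protocol, per the labels' protocols. The submitters' processing notes name CASAVA 1.8.2, TopHat 1.4.1 and the mm9 genome. The authors deposited 1 table of RPKM values for 30978 RefSeq transcripts per library, per the file headers. Which program made the RPKM values, and how it used strand and shared reads, is not stated here, so Bcl2l1, Bak1, Bcl2l11 and Casp9, which overlap other listed genes, are uncertain to that extent.

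Transcripts were named from RefSeq (30507) and GENCODE M21 (178), and 293 had no name. Each gene was read from its transcript with the highest mean RPKM. A minimum mean of 0.5 RPKM left 12159 genes, all 9 members among them, which were fitted with limma 3.58.1 in R 4.3.3 on log2(RPKM + 0.5), without a replicate block, with Benjamini-Hochberg adjustment. The median SE of a log2 change was 0.0825. On simulated data with 200 changed genes in 10 runs over 12159 genes, the homozygous against control test found 74.6% of changes of 0.5 and 97.8% of changes of 1, with 4.81% false calls. The simulation used independent noise and changed far fewer genes than the 34.3% called in the data. Its rates therefore need not hold for the data. Depth was estimated from the steps between low values, of which 68.8% to 72.5% lay within 0.1 of a whole read, with lengths from GRCm38, so depth is rough, and counts were not tested. No pair of libraries was identical. The labels number the replicates but do not say that they are separate litters, so p-values measure the spread between these samples. The members and lists were chosen with earlier results of these data known. Other genes were named by a rule: per list, at most 4 called genes taken by adjusted p, besides 6 fixed genes, and the 2 nearest patterns. Some further genes, such as uncalled p53 targets, uncalled Mcl1 turnover genes and single markers, were named outside this rule. They are not in the counts of alternatives below. Spans and promoters are from GRCm38 (RefSeq and GENCODE), not the authors' build. Some genes of the wider pathway are not reported here. Sequence was printed for 4 of the 9 members, all of which matched the RefSeq promoter table.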

Additional observations from a re-analysis of the deposited data

How the results depend on the processing

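Each alternative changed 1 choice. Of the log2 changes of members, 486 kept their direction and side of the threshold, 19 came to pass, 8 no longer passed and 18 turned sign; of those of other named genes, whose alternatives were chosen after seeing the data, 599 kept them, 5 came to pass, 27 no longer passed and 5 turned sign. Counts of calls stayed within 1.5 times their value in 115 cases and rose beyond it in 5, whatever their split by direction. The limma calls of Bbc3, Hrk and Bcl2 against control held under all alternatives in which the gene was tested; a minimum of 2 RPKM removed Bbc3, Hrk and Bcl2l11. The cause of the changes below was not tested. For homozygous against control cortex, median centring gave log2 changes of 0.28 for Bak1, 0.26 for Bcl2l1, 0.33 for Bcl2l11, 0.0362 for Casp9 and 0.0572 for Casp8, and quantile normalization gave 0.28, 0.22, 0.31, 0.0338 and 0.0543; both raised the members called to 7. A minimum of 2 RPKM gave Bak1 0.21. For homozygous against heterozygous cortex, median centring gave 0.28 for Bax and 0.32 for Bcl2l11, quantile normalization 0.30 for Bcl2l11, a fit of these genotypes alone 0.26 for Bcl2l11, and no filter 0.34 for Bcl2l1. For heterozygous against control cortex, median centring gave 0.00165 for Bcl2 and 0.00130 for Bcl2l11, quantile normalization 0.00293 and 0.00513, and the mean over transcripts 0.0105 for Bcl2; 1 gene was called with no filter and 1 in a fit of these genotypes alone.

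Leaving out single libraries, homozygous against control changes ran from 0.16 to 0.23 for Mcl1, 0.11 to 0.29 for Bcl2l1, 0.16 to 0.36 for Bcl2l11, -0.11 to 0.0385 for Casp9 and -0.0812 to 0.0670 for Casp8. Homozygous against heterozygous changes ran from 0.14 to 0.21 for Mcl1, 0.14 to 0.32 for Bax, 0.23 to 0.30 for Bcl2l11 and -0.0103 to 0.0713 for Casp9. Heterozygous against control changes ran from -0.17 to 0.0513 for Bax, -0.0873 to 0.0668 for Bcl2, -0.10 to 0.0934 for Bcl2l11 and -0.14 to 0.00879 for Casp9, with 0 to 1 genes called.

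Same-numbered libraries deviated from their group means with correlations of -0.0444 to 0.404, and the number matched best in 6 of 18 cases, so the numbers are not taken to pair the embryos. With the replicate block the called genes were 4429 for homozygous against control and 4267 for homozygous against heterozygous cortex (4170 and 3992 without it), the members called 6 and 7 (4 and 6 without it), and Bak1 (0.21) and Bcl2l11 (0.26 against control and 0.26 against heterozygous cortex) passed.

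With 3 embryos a genotype, RPKM values and no counts, changes of Bax and Casp9 within their intervals could not be told from 0.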
